A study of Mus musculus with 9 samples.

Results

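Injured spinal cords of mice treated with hyperbaric oxygen (HBO) were compared with uninjured cords of a sham group, at day 7. The comparison takes in 6 of the 9 RNA-seq libraries of the series, 3 from HBO cords and 3 from sham cords, and all 34745 genes of the deposited tables. HBO libraries are labelled by the treatment alone, and the design text dates all groups by days after injury; sham libraries are labelled as controls with no injury, and what the sham procedure was is not described. All mice were wild-type C57BL/6 animals of 7 to 9 weeks, and RNA was taken from frozen spinal cord tissue in both groups. No transgene or Cre driver is named. The sources used here do not give the injury model, the lesion level, the length of cord taken, the oxygen pressure or the number of sessions. The groups differ by injury and by oxygen at once, so the share of each in any difference cannot be told apart here; the 3 libraries of untreated injured cords were not used. Whether each library stands for its own animal is not in the labels, so the p-values reflect spread among these libraries alone, which may be technical.

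A contusion or cut of the cord opens the blood-spinal cord barrier and kills neurons and oligodendrocytes within hours. By the end of the first week, resident microglia and blood-borne macrophages clear myelin debris, astrocytes thicken around the lesion, and fibroblasts of the meninges and vessel walls lay down a collagen scar in its core. Hyperbaric oxygen raises the oxygen dissolved in plasma and is used clinically for hypoxic wounds. The comparison sets the oxygen-treated injured cord against an uninjured one in each of these responses. In bulk tissue, fewer cells of a type and less RNA per cell cannot be told apart.

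Library totals ranged from 12463783 to 14142161 counts in HBO and from 11159587 to 13496372 counts in sham, with 20795 to 21582 genes detected. The groups parted on the first principal component, which held 69.8% of the variance, with HBO libraries at -30.9, -73.5 and -52.5 and sham libraries at 64.1, 56 and 36.8. Levels are given in CPM, counts scaled to a common library total after TMM adjustment. Log2 CPM correlated at 0.972 to 0.974 within HBO, at 0.978 to 0.98 within sham and at 0.889 to 0.96 between the groups, so HBO libraries varied more among themselves. Some libraries carried signals that their group did not share. HBO replicate 3 held 6.54% mitochondrially encoded counts (2.97% to 4.07% in the other 5 libraries) and was high in neutrophil genes, HBO replicate 1 was high in skeletal muscle genes, and Schwann cell genes stood high in sham replicate 3. Results that touch these genes are given with and without those libraries.

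Injury with oxygen treatment left a large part of the transcriptome apart from sham at day 7. Of 17397 genes tested, 5072 (29.2%) differed at an adjusted p under 0.05 in the edgeR quasi-likelihood test, 2891 of them higher in HBO (16.6%) and 2181 lower (12.5%). The rises were larger than the falls. A change of more than 2-fold was called for 1748 higher and 468 lower genes, of more than 4-fold for 592 and 11, and of more than 16-fold for 51 and 1. The median log2 fold change, HBO over sham, was 1.23 among genes called higher and -0.78 among genes called lower, and 0.0095 over all genes tested. Every HBO library lay above every sham library in 4326 genes (24.9%) and below in 3966 genes (22.8%), 47.7% in all. The number of calls rests in part on sham replicate 1, without which 2859 genes were called (1943 higher, 916 lower). Called lower genes numbered 1309 without HBO replicate 2 and 1406 without sham replicate 2. In each of the 6 fits that leave out 1 library, 2603 genes kept their call, 1764 higher and 839 lower.

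**Figure D1:**
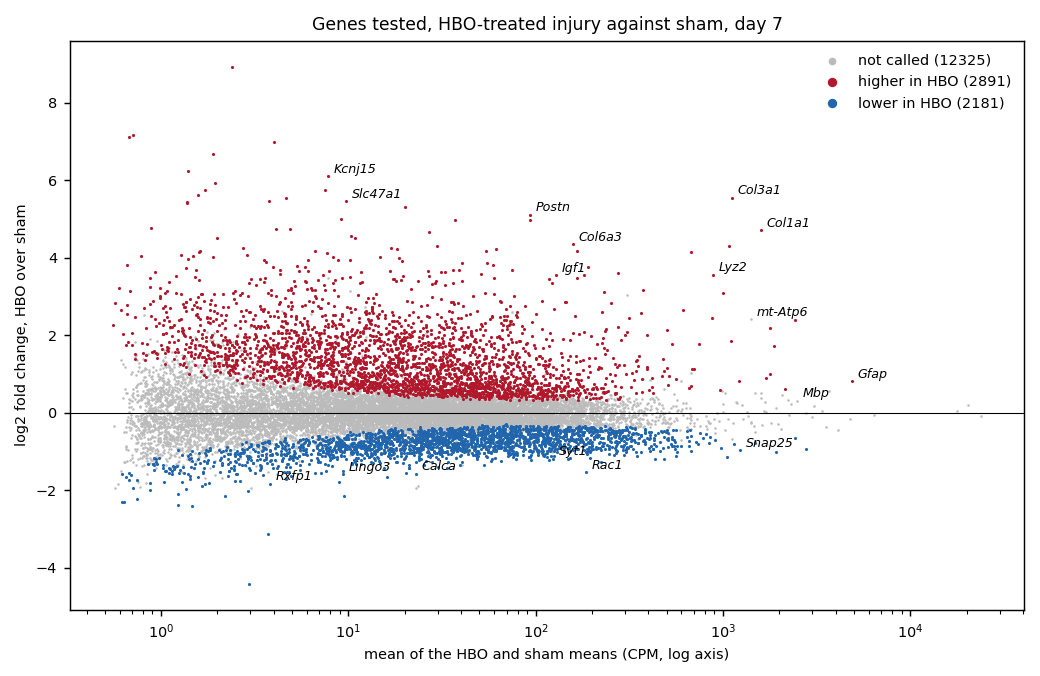
Log2 fold change, HBO over sham, against the mean level in CPM (log axis) for all 17397 genes tested. Each dot is a gene; red dots are the 2891 genes called higher in HBO, blue dots the 2181 called lower, grey dots the rest, and the red cloud reaches much farther from 0 than the blue one.

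The 12 largest rises that met the naming rule included several genes of connective tissue. Col3a1, the chain of type III collagen (chr1:45311538-45349706), had 1267, 3144 and 2176 CPM in HBO, against 21.3, 39.2 and 79.9 CPM in sham. The lowest HBO library was far above the highest sham library, and the log2 fold change was 5.55 ± 0.55 (adjusted p = 0.00111). Postn encodes periostin, secreted by fibroblasts of scars and bone surfaces (chr3:54361109-54391037), and had 146, 179 and 219.7 CPM in HBO, against 2.62, 6.61 and 6.54 CPM in sham. Every HBO library was far above sham, and the log2 fold change was 5.11 ± 0.32 (adjusted p = 0.000429). Col8a1, a short-chain collagen of vessel walls (chr16:57624258-57754737), had 94.8, 276 and 174 CPM in HBO, against 3.25, 5.64 and 8.23 CPM in sham, with a log2 fold change of 4.98 ± 0.45 (adjusted p = 0.00104). Smoc2, a matrix calcium-binding protein (chr17:14279506-14404790), had 39.8, 132 and 44.2 CPM in HBO, against 1.19, 1.59 and 3.90 CPM in sham. HBO replicate 2 stood highest in both, while the groups stayed apart.

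The other large rises were of genes nearly silent in sham cords. Kcnj15, an inward rectifier potassium channel (chr16:95257558-95300260), had 8.82, 27.9 and 9.55 CPM in HBO, against 0, 0.529 and 0.147 CPM in sham, and the log2 fold change of 6.10 ± 0.77 rests on 8 counts in sham. Dnm3os, the host transcript of a microRNA cluster (chr1:162217623-162225550), had 11.1, 21.1 and 12.2 CPM in HBO, against 0.317, 0 and 0.441 CPM in sham, and Prg4, the lubricating proteoglycan of joints (chr1:150449412-150466165), had 3.95, 16.5 and 6.95 CPM in HBO, against 0.238, 0.176 and 0.147 CPM in sham. Their log2 fold changes were 5.76 ± 0.54 and 5.54 ± 0.69, with 10 and 7 counts in sham, so the size of each is loosely set. Slc47a1, an organic cation exporter, was at 5.46 ± 1.02, Gxylt2, a xylosyltransferase, at 5.30 ± 0.48 and Nrk, a kinase, at 4.99 ± 0.73. HBO replicate 2 held most of Slc47a1, with 8.68, 44.6 and 3.94 CPM in HBO. The cadherin Fat2 (5.47 ± 1.01) and Fam180a (4.74 ± 0.86) had counts in sham replicate 3 only, and without that library their fitted values were 9.55 and 9.65, which depend on the handling of 0 counts. Ccdc68 and RP24-88B16.2 were among the called genes with a count of 0 in every sham library. Against a floor of 3 counts over the 3 sham libraries, Ccdc68 (54 counts in HBO) was at least 17.4-fold higher and RP24-88B16.2 (52 counts) at least 16.7-fold.

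The 12 largest falls were smaller and included genes of neurons. Calca encodes calcitonin gene-related peptide of motor and sensory neurons (chr7:114631478-114636357) and had 15.95, 7.80 and 10.8 CPM in HBO, against 27.9, 49.2 and 26.7 CPM in sham. All HBO libraries lay below all sham libraries, with a log2 fold change of -1.58 ± 0.31 (adjusted p = 0.00664). Rxfp1, a relaxin receptor (chr3:79641611-79737880), had 1.91, 1.72 and 1.34 CPM in HBO, against 8.73, 4.14 and 4.997 CPM in sham, and its log2 fold change of -1.84 ± 0.34 (adjusted p = 0.00539) was the largest fall under the rule. Syt6, a synaptotagmin, was at -1.67 ± 0.31, and Lingo3, a leucine-rich repeat membrane protein, at -1.59 ± 0.24. Lbx1 and Skor1, which are transcriptional regulators of dorsal horn interneurons in the mouse embryo, were at -1.55 ± 0.23 and -1.54 ± 0.21, and the potassium channel subunit Kcng1 was at -1.54 ± 0.29. Lbx1 had 4.73, 3.35 and 2.76 CPM in HBO, against 9.84, 11.3 and 10.8 CPM in sham, and the groups stood apart. Asphd1 (-1.65 ± 0.35), the retinoic acid binding protein Crabp1 (-1.62 ± 0.28), Slc35d3 (-1.56 ± 0.30) and C1qtnf4 (-1.56 ± 0.27) made up the rest with Rac1, a small GTPase of the actin cytoskeleton. Rac1 (chr5:143503634-143528036) had 94.2, 96.9 and 95.9 CPM in HBO, against 263, 285 and 284 CPM in sham, a log2 fold change of -1.54 ± 0.11 (adjusted p = 0.000607). Exons of Daglb on the opposite strand cover 51.4% of its exon bases and the strand setting of the counting is not known, so this value is uncertain; Daglb itself was at 0.46 ± 0.15 (adjusted p = 0.0489).

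**Figure D2:**
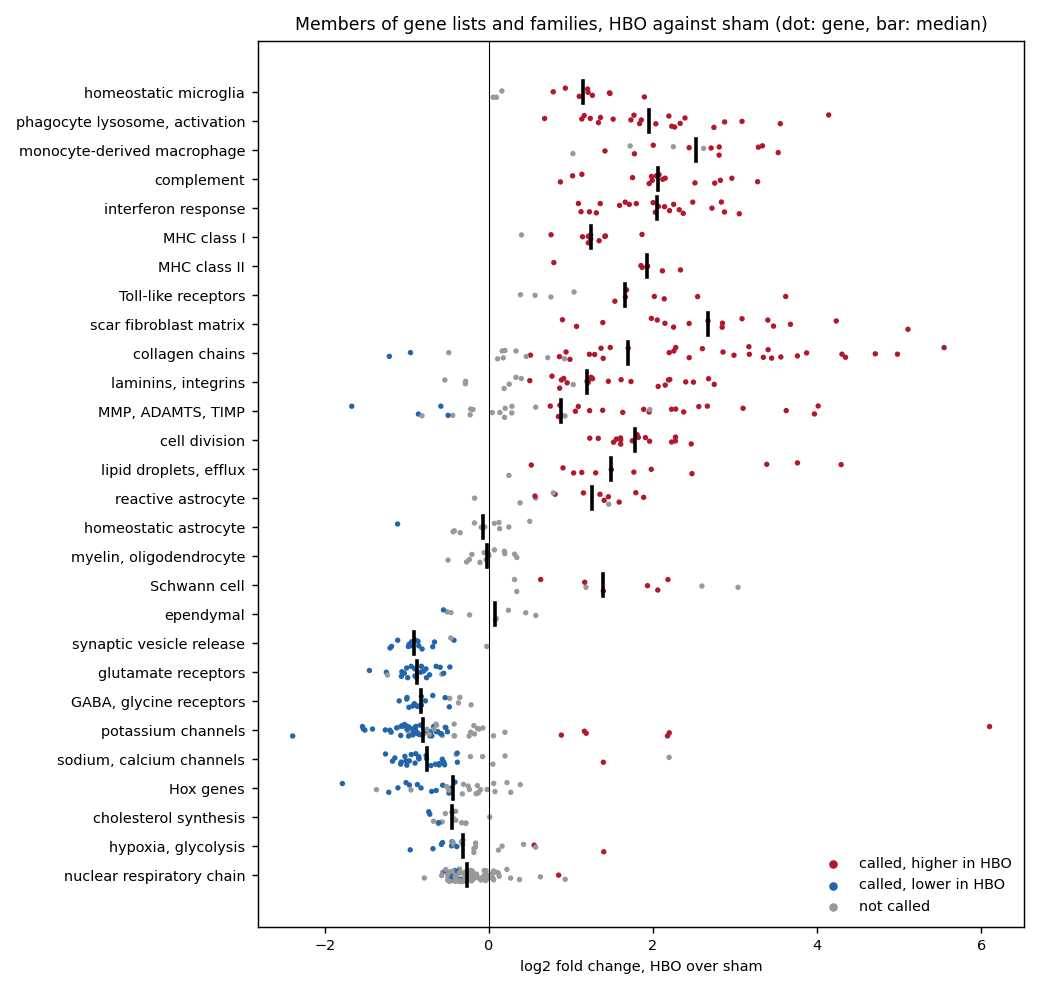
Log2 fold change, HBO over sham, of each tested member (dot) of 28 gene lists and families, with the median as a black bar. Red dots are called higher in HBO, blue dots called lower and grey dots not called; immune and matrix lists lie right of 0, synaptic, receptor and channel lists left of it, and myelin genes around it.

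Scar matrix genes rose together. Of 17 tested genes of scar fibroblasts and matricellular proteins all 17 were called higher (median log2 fold change 2.67), beside the 16.6% of all genes called higher. Of 41 tested collagen chains 30 were called higher and 2 lower (median 1.7). Summed over the family, collagen counts came to 8210, 16400 and 11400 CPM in HBO and to 922, 1140 and 1570 CPM in sham, 9.92-fold higher in HBO. Every HBO library was more than 4-fold above every sham library. Col1a1, the main chain of scar collagen (chr11:94936224-94953042), had 2198, 4350.0 and 2658 CPM in HBO, against 56.02, 116 and 180.1 CPM in sham, a log2 fold change of 4.71 ± 0.46 (adjusted p = 0.00111). Col6a3, a chain of the beaded filaments around cells, had 226, 377 and 299 CPM in HBO, against 12.5, 13.7 and 18.01 CPM in sham. The groups lay far apart, and it had the lowest adjusted p of all genes (4.35 ± 0.23, adjusted p = 0.000308). Of the fibril-nucleating type V chains, Col5a1 was at 3.76 ± 0.32 and Col5a2 at 3.56 ± 0.31. The 2 chains called lower were Col19a1 (-1.21) and Col25a1 (-0.96), both made by neurons in the mouse, and 1 of them kept its call without sham replicate 2.

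Proteins that anchor cells to the matrix or cut it were also higher in part. Of 30 tested laminins and integrins 21 were called higher and 0 lower (median 1.2). Lama1, a laminin chain of basement membranes, had 59.2, 73.2 and 64.7 CPM in HBO, against 13.3, 13.1 and 16.8 CPM in sham, with a log2 fold change of 2.19 ± 0.15 (adjusted p = 0.000607). Its groups were narrow and well apart. Lama4, a laminin of vessel walls, was at 2.40 ± 0.22 and Itga11, a collagen receptor of fibroblasts, at 2.75 ± 0.26. Of 38 tested matrix metalloproteinases, ADAMTS proteases and their inhibitors 20 were called higher and 4 lower (median 0.88); the 4 lower ones were 2 in the fits without HBO replicate 2 or 3 or sham replicate 1 or 2. Mmp14, a membrane-bound collagenase, had 108, 241 and 163 CPM in HBO, against 27.1, 30.95 and 28.9 CPM in sham, and Mmp2, the gelatinase it activates, was at 3.10 ± 0.34 (adjusted p = 0.00111). Loxl1, which cross-links elastin, was at 3.40 ± 0.30 (adjusted p = 0.00104), a 10.6-fold difference. Annexins and S100 proteins, calcium-binding proteins of membranes and the cytoskeleton, were called higher in 13 of 19 tested (median 1.18), with Anxa1 at 2.87 ± 0.25 and S100a11 at 2.31 ± 0.26.

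Growth factor genes that drive fibrosis and repair were mostly higher. Of 17 tested genes of the TGF-beta and BMP pathway 12 were called higher and 0 lower (median 1.12). The ligand Tgfb1 had 43.6, 66.2 and 49.1 CPM in HBO, against 14.3, 16.1 and 16.6 CPM in sham, and its log2 fold change was 1.75 ± 0.18 (adjusted p = 0.00111). Its receptor Tgfbr2 was at 1.67 ± 0.21, the target Tgfbi at 2.36 ± 0.30, and Ltbp2, a latent-TGF-beta binding protein family member of elastic fibres, at 4.51 ± 0.34 (adjusted p = 0.001). Of 10 insulin-like growth factor genes 9 were called higher (median 2.06). Igf1, a trophic factor made by activated microglia and macrophages, had 165, 333 and 212 CPM in HBO, against 9.68, 22.8 and 28.4 CPM in sham, 11.7-fold higher in HBO with a log2 fold change of 3.54 ± 0.40 (adjusted p = 0.00114). All HBO libraries were several-fold above sham. The binding proteins Igfbp3 (2.50 ± 0.20) and Igfbp7 (1.99 ± 0.22) were higher too. Igf2 was at 2.38 ± 0.26, but 62.8% of its exon bases are shared with another gene on the same strand, so its count is uncertain. The receptor Igf1r had a log2 fold change of -0.01 and was not called.

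**Figure D3:**
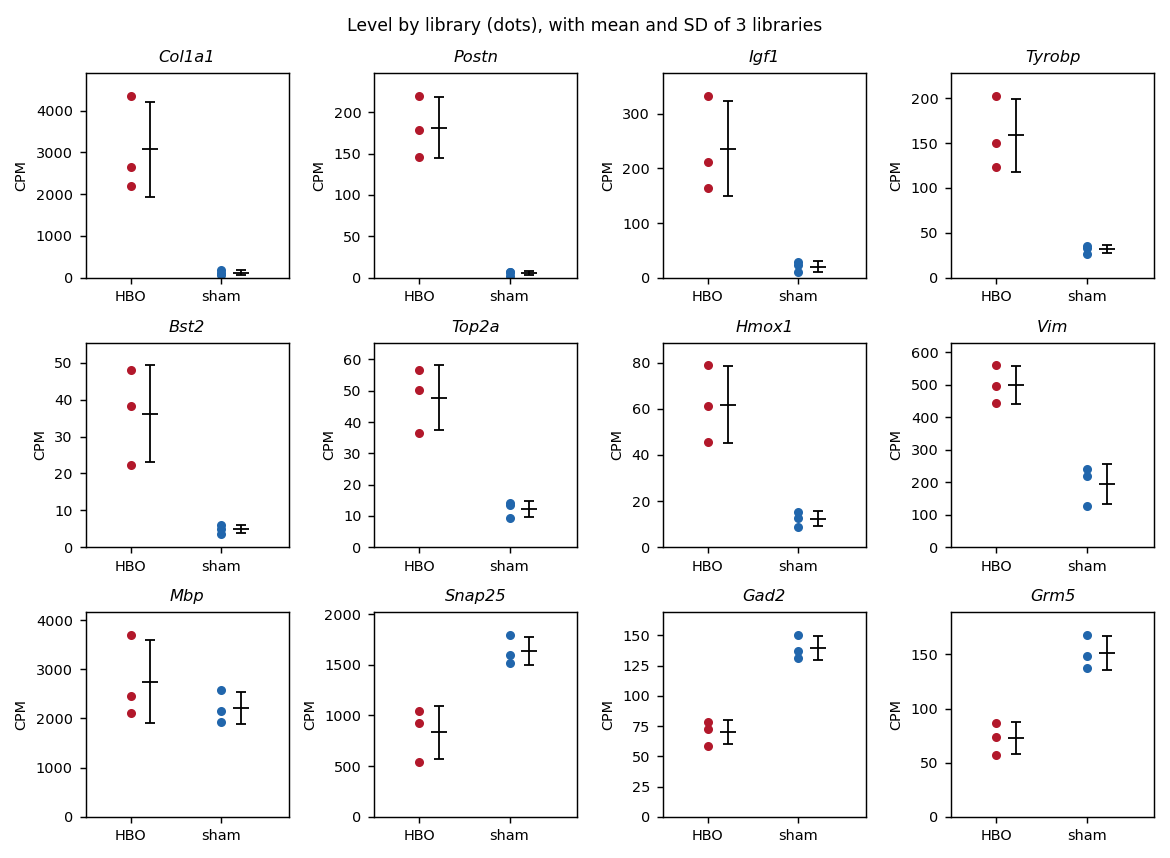
Level in CPM of 12 genes in each of the 3 HBO libraries (red dots, left) and the 3 sham libraries (blue dots, right), with the mean and SD of 3 libraries in black. The HBO dots of Col1a1, Postn, Igf1, Tyrobp, Bst2, Top2a, Hmox1 and Vim lie above all sham dots, those of Snap25, Gad2 and Grm5 below them, and those of Mbp overlap.

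Phagocyte genes rose as a block. All 22 genes of phagocyte lysosomes and activation were called higher (median 1.95), beside 16.6% of all genes. In each of the 22 every HBO library lay above every sham library, which held for 24.9% of all genes tested. Their summed level was 12500, 21800 and 21600 CPM in HBO and 3460, 4380 and 4850 CPM in sham. Cd68, a lysosomal membrane protein of phagocytes (chr11:69664213-69666153), had 119, 239 and 211 CPM in HBO, against 18.4, 22.8 and 36.2 CPM in sham, a log2 fold change of 2.87 ± 0.32 (adjusted p = 0.00111). Tyrobp, the adaptor of TREM2, had 123, 203 and 151 CPM in HBO, against 26.4, 33.2 and 34.9 CPM in sham, with a log2 fold change of 2.33 ± 0.20 (adjusted p = 0.00104). HBO replicate 2 was highest in both genes, and no HBO library came near sham. The protease Ctsz was at 2.04 ± 0.21 and the protease inhibitor Cst7 at 1.86 ± 0.20. Of 12 tested cathepsins 10 were called higher (median 1.75), with Ctsk, the collagen-degrading cathepsin of osteoclasts and macrophages, at 2.21 ± 0.22 (adjusted p = 0.00111). Ctsd was at 2.39 ± 0.26 and is uncertain, as 34.4% of its exon bases are shared with another gene on the same strand.

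Genes listed for monocyte-derived macrophages rose, and so did most genes of resting microglia. Of 14 genes of the macrophage list 10 were called higher (median 2.53), and of 12 genes of homeostatic microglia 9 (median 1.15). The difference between the lists was not tested. The macrophage list does not tell cells that entered from the blood from resident ones. Fn1, fibronectin, gave most of its summed level, with a mean of 1468 of 2030 CPM in HBO. Mrc1, the mannose receptor of perivascular and repair macrophages, had 37.9, 73.4 and 46.3 CPM in HBO, against 3.57, 3.35 and 8.53 CPM in sham, a log2 fold change of 3.33 ± 0.39 (adjusted p = 0.0012). The groups were 10.1-fold apart. F13a1, a transglutaminase of macrophages, was at 3.28 ± 0.40 and Ms4a7 at 3.53 ± 0.47. Of the microglial genes, P2ry13, a nucleotide receptor, had 23.4, 27.4 and 26.04 CPM in HBO, against 11.2, 11.7 and 10.4 CPM in sham, with a log2 fold change of 1.20 ± 0.14 (adjusted p = 0.00123). Tmem119 was at 1.26 ± 0.17, and Aif1, the calcium-binding protein IBA1, at 1.48 ± 0.24. Csf1r (1.21 ± 0.15) shares 15.1% of its exon bases with a gene on the opposite strand and is uncertain.

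Receptors by which myeloid cells sense debris and microbes rose with them. Of 11 tested Toll-like receptors 7 were called higher (median 1.66), among them Tlr2 (1.54 ± 0.17), Tlr8 (3.62 ± 0.43), Tlr9 (2.02 ± 0.25) and Tlr13 (2.14 ± 0.24). All 5 Fc gamma receptor genes were called higher (median 2.4). Fcgr4, a receptor for IgG, had 7.13, 13.7 and 12.3 CPM in HBO, against 1.59, 1.85 and 1.91 CPM in sham, a log2 fold change of 2.62 ± 0.30 (adjusted p = 0.00116). Of 9 tested members of the Ms4a family 8 were called higher (median 2.86), and Ms4a14 reached 4.57 ± 0.56. Of 10 tested chemokine receptors 8 were called higher (median 1.23). Cxcr4, the receptor of CXCL12, had 23.3, 43.3 and 29.98 CPM in HBO, against 7.54, 7.14 and 7.35 CPM in sham, with a log2 fold change of 2.13 ± 0.23 (adjusted p = 0.00111). Sham libraries were nearly equal in it and HBO replicate 2 was highest. Ccr2, which draws monocytes from the blood, was at 1.77 ± 0.35.

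Chemokines and cytokines themselves changed less uniformly. Of 20 tested chemokine ligands 9 were called higher and 2 lower (median 1.01). Ccl6 was at 2.07 ± 0.30 and Ccl9 at 1.70 ± 0.26, whereas Ccl27a fell (-0.98 ± 0.19, adjusted p = 0.00651). The median of this family was 1.72 without sham replicate 1, and 1 ligand was called lower without HBO replicate 2 or 3 or sham replicate 1 or 3. Of 17 tested cytokines and receptors 12 were called higher (median 1.44). Tnfrsf1b, a receptor of tumour necrosis factor, had 55.1, 96.4 and 66.4 CPM in HBO, against 19.4, 17.02 and 17.6 CPM in sham, a log2 fold change of 2.01 ± 0.21 (adjusted p = 0.00111). The receptors Il4ra (1.71 ± 0.24) and Il13ra1 (1.60 ± 0.21) were higher as well. Il1b, the interleukin released by inflammasomes, had 2.26, 5.15 and 3.68 CPM in HBO, against 19.8, 1.85 and 0.588 CPM in sham. Sham replicate 1 was far above all other libraries, and the log2 fold change of -1.01 ± 0.97 (adjusted p = 0.474) was 1.62 without it (adjusted p = 0.0801). Of 11 inflammasome and pyroptosis genes 10 were called higher (median 1.37), with Naip2 at 1.73 ± 0.20 and the ATP-gated channel P2rx7 at 1.26 ± 0.15.

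Complement and antigen presentation were raised almost throughout. All 16 tested complement genes were called higher (median 2.06), beside 16.6% of all genes. This count was 13 without HBO replicate 3 or sham replicate 1, and 14 in the DESeq2 Wald test or without sham replicate 2. C1qa and C1qb, subunits of the starter of the classical pathway, were at 2.07 ± 0.23 and 1.99 ± 0.24. Itgb2, the beta chain of the complement receptors of leukocytes, had 86.3, 136 and 123 CPM in HBO, against 24.4, 23.7 and 29.5 CPM in sham (2.15 ± 0.18, adjusted p = 0.00104). In these genes the groups did not overlap. Of 11 class I presentation genes 10 were called higher (median 1.24), and of 7 class II genes 7 (median 1.93). The class II count was 5 without sham replicate 1 and 6 without HBO replicate 2 or sham replicate 2. B2m encodes beta-2 microglobulin of class I complexes and had 301, 463 and 583 CPM in HBO, against 113, 111 and 146 CPM in sham, with a log2 fold change of 1.87 ± 0.24 (adjusted p = 0.00139). H2-Aa, a class II chain, was at 2.34 ± 0.34, and Cd74, the invariant chain, at 1.93 ± 0.31. H2-K1 (1.34 ± 0.17) and H2-D1 (1.41 ± 0.18) belong to a family of near-identical genes between which reads could be split, so their single values are uncertain. Of 13 lymphocyte genes only Cd4, which macrophages can also express in some species, passed the count filter (2.73 ± 0.49), so these data say little on T and B cells.

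Genes induced by interferon were all higher in HBO cords. Type I interferons act through transcription factors that bind the interferon-stimulated response element in promoters. All 22 listed genes were called higher, with log2 fold changes of 1.09 to 3.05 (median 2.05), beside 16.6% of all genes. In each of the 22 every HBO library lay above every sham library, which held for 24.9% of all genes tested. Bst2, a membrane protein that tethers budding viruses, had 22.2, 38.2 and 48.1 CPM in HBO, against 4.999, 3.70 and 6.03 CPM in sham, a log2 fold change of 2.87 ± 0.31 (adjusted p = 0.00111). Oas2, a sensor of double-stranded RNA, had 12.3, 23.02 and 39.5 CPM in HBO, against 3.97, 2.03 and 2.94 CPM in sham, with a log2 fold change of 3.05 ± 0.43 (adjusted p = 0.00195). In both genes HBO replicate 3 was highest. Ifi27l2a was at 2.83 ± 0.32 and Mx1, a GTPase against viruses, at 2.37 ± 0.36. The summed level of the list was 581, 805 and 1540 CPM in HBO and 375, 264 and 274 CPM in sham. HBO replicate 3 stood apart here and was also the library with the most neutrophil and mitochondrial counts; the part of those in this result was not tested. All 22 genes were called higher in the fit without it (median 1.51). The count was 17 without sham replicate 2, 18 without sham replicate 3, and 21 without sham replicate 1 or with a replicate block.

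The core of the interferon-stimulated response element, GAAA followed by any 2 bases and GAAA, was looked for on both strands of the promoters (250 bases before to 50 after the start, RefSeq on GRCm38.p6). It occurred in 1131 of 32851 promoters (3.44%). Promoters were given for 15 of the 22 listed genes, and 9 of these genes (60.0%) held a match, in 9 of their 17 promoters (52.9%). A match is a description of the letters and not of a bound site. The promoters of Bst2, Isg15, an interferon-induced ubiquitin-like protein, and Ifit1, which binds foreign RNA, are printed because the matches are clustered in them; the last 2 genes were chosen after their values were seen. Capitals mark the matches, of which overlapping ones run together, and in Ifit1 the matches are on the other strand and read TTTC, any 2 bases and TTTC. The windows are chr8:71537423-71537722 (minus strand), chr4:156200769-156201068 (minus strand) and chr19:34640639-34640938 (plus strand), each printed along its gene.
Bst2: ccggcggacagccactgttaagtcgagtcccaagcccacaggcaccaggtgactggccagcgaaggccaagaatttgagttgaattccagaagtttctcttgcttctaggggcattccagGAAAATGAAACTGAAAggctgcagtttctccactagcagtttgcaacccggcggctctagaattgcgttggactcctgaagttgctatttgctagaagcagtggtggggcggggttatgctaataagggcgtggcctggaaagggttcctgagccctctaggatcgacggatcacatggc
Isg15: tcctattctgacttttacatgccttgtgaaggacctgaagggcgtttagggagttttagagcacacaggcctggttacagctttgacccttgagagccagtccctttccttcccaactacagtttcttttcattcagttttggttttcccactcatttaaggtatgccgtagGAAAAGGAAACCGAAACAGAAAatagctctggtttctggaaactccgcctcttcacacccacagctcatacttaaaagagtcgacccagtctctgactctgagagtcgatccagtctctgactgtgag
Ifit1: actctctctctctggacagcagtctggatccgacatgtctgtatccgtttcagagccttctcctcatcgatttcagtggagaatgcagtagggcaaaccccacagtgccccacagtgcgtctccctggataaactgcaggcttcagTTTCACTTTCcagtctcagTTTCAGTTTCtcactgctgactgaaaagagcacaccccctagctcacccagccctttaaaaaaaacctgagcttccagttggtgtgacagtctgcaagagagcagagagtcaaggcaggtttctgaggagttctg
In Bst2 the 2 matches begin at -130 and -124 from the start, in Isg15 the 3 matches between -78 and -66, and in Ifit1 the 2 matches at -104 and -85. Isg15 averaged 8.98 ± 6.72 CPM in HBO and 1.58 ± 0.503 CPM in sham and Ifit1 52.02 ± 36.6 CPM in HBO and 12.97 ± 4.39 CPM in sham (SD, n = 3 each). Their log2 fold changes were 2.48 ± 0.54 and 2.001 ± 0.46.

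Genes of dividing cells rose. All 16 genes of mitosis were called higher (median 1.78), beside 16.6% of all genes. This count was 13 without HBO replicate 2 or sham replicate 2, 14 without HBO replicate 3 or sham replicate 1, and 15 without sham replicate 3. In all 16 every HBO library lay above every sham library, which held for 24.9% of all genes tested. Their summed level was 185, 283 and 386 CPM in HBO and 59.4, 73.3 and 81 CPM in sham. Top2a, the topoisomerase that untangles chromosomes, had 36.4, 50.2 and 56.6 CPM in HBO, against 9.44, 14.02 and 13.4 CPM in sham, a log2 fold change of 1.96 ± 0.21 (adjusted p = 0.00111). Mki67, a coat protein of mitotic chromosomes, had 63.6, 97.7 and 166 CPM in HBO, against 13.5, 20.02 and 25.6 CPM in sham, with a log2 fold change of 2.47 ± 0.36 (adjusted p = 0.00207). HBO replicate 3 was highest in both. Cyclin B2 (Ccnb2) was at 2.27 ± 0.31 and Cenpf, a kinetochore protein, at 1.91 ± 0.28. Of 15 genes of DNA replication 11 were called higher and 0 lower (median 0.95). The helicase subunits Mcm6 and Mcm5 were at 1.41 ± 0.19 and 1.37 ± 0.22, and Rrm2, which makes deoxynucleotides, at 1.42 ± 0.20. Which cells were dividing cannot be read from whole tissue.

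Many mitotic genes are switched by a promoter element called CHR, with the letters TTTGAA, beside CCAAT boxes. Of the 16 genes 14 had a promoter in the table. TTTGAA was found on either strand in 11 of the 14 (78.6%), against 17.9% of all 32851 promoters, and CCAAT in 13 (92.9%), against 37.4% of all. CCAAT is not particular to this list. It was also found in all 10 cholesterol synthesis genes with a promoter given, in 83.3% of their promoters, and 0 genes of that list were called higher. The promoters of Top2a (chr11:99024140-99024439, minus strand) and Ccnb2 (chr9:70421505-70421804, minus strand) are printed since they hold several copies of both. Capitals mark the matches, which on the other strand read TTCAAA and ATTGG.
Top2a: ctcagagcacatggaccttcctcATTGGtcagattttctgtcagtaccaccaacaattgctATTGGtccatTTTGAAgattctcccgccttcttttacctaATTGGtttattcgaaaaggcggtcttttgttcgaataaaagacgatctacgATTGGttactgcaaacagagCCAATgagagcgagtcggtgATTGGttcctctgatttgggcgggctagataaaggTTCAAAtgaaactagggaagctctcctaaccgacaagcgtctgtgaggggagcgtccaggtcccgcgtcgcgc
Ccnb2: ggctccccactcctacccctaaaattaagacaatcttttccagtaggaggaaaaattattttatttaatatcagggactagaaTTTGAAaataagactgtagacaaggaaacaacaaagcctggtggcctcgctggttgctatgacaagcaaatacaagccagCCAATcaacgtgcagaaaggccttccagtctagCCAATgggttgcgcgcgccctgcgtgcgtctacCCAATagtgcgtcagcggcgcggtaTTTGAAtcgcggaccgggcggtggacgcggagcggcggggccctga
Top2a held 2 copies of TTTGAA and 6 of CCAAT, and Ccnb2 held 2 and 3.

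Genes of lipid uptake and storage rose, while 4 genes of cholesterol synthesis fell. Of 13 genes of lipid uptake, droplets and efflux 12 were called higher (median 1.49). Cd36, a scavenger receptor for lipids, had 19.98, 81.5 and 68.3 CPM in HBO, against 3.41, 1.68 and 3.45 CPM in sham, a log2 fold change of 4.29 ± 0.53 (adjusted p = 0.00132). HBO replicate 1 was lowest but still well above sham. Msr1, a scavenger receptor that takes up myelin debris, was at 3.39 ± 0.35, Fabp4, a fatty acid carrier, at 3.76 ± 0.44 and the lysosomal lipase Lipa at 1.98 ± 0.23. Of 16 cholesterol synthesis genes 4 were called lower and 0 higher (median -0.44), beside 12.5% of all genes called lower. This count was 8 without HBO replicate 1, 1 without HBO replicate 3 and 0 without HBO replicate 2, sham replicate 1 or sham replicate 2, so it is not firmly set. Lss, which closes the sterol rings, had 40.2, 29.7 and 39.9 CPM in HBO, against 66.97, 52.1 and 48.8 CPM in sham (-0.61 ± 0.17, adjusted p = 0.0264), and lost its call without HBO replicate 2 (-0.48), sham replicate 1 (-0.46) or sham replicate 2 (-0.68).

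Haem and oxidant defence genes were raised in part. Hmox1, which breaks down haem (chr8:75093591-75100596), had 45.5, 61.01 and 78.8 CPM in HBO, against 12.9, 8.91 and 15.4 CPM in sham, 4.97-fold higher in HBO with a log2 fold change of 2.31 ± 0.25 (adjusted p = 0.00111). All HBO libraries were well above sham. Of 14 tested genes of haem and iron 8 were called higher and 1 lower (median 1.25). Slc11a1, an iron exporter of phagosomes, was at 1.78 ± 0.25, and Cybb, the oxidase that makes superoxide in phagocytes, at 2.89 ± 0.29 (adjusted p = 0.00111). Of 18 antioxidant and NRF2 genes 7 were called higher and 1 lower (median 0.39). Gpx3, the secreted glutathione peroxidase, had 46.4, 63.7 and 63.05 CPM in HBO, against 15.6, 11.8 and 17.1 CPM in sham, with a log2 fold change of 1.95 ± 0.19 (adjusted p = 0.0011). Slc7a11, the cystine importer, was at 1.17 ± 0.17, and Nfe2l2, which encodes NRF2, at 1.31 ± 0.20. The gene called lower was Sod2, the mitochondrial superoxide dismutase (-0.60), chosen here after its value was seen.

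Oxygen-sensing and glycolysis genes did not rise as a group. Of 22 tested genes 2 were called higher and 7 lower (median -0.32). The shares over all genes were 16.6% higher and 12.5% lower. Vegfa, the angiogenic factor induced by hypoxia (chr17:46016993-46032377), had 25.2, 20.8 and 18.8 CPM in HBO, against 49.99, 32.5 and 43.6 CPM in sham, a log2 fold change of -0.96 ± 0.19 (adjusted p = 0.00659). All HBO libraries lay below all sham libraries. Pfkp, a phosphofructokinase of neurons and glia, was at -0.68 ± 0.12 (adjusted p = 0.0042), and Bnip3 at -0.58 ± 0.12, uncertain as 22.3% of its exon bases are shared with a gene on the opposite strand. Hk2, the inducible hexokinase, had 38.8, 53.9 and 52.3 CPM in HBO, against 14.6, 17.7 and 22.6 CPM in sham and rose (1.40 ± 0.20, adjusted p = 0.0019). The number called lower was 3 without HBO replicate 2, sham replicate 1 or sham replicate 2 and 4 without HBO replicate 3, and 1 gene was called higher without sham replicate 2.

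Vessel genes were moderately higher. Of 15 endothelial and barrier genes 10 were called higher and 0 lower (median 0.52), beside 16.6% of all genes called higher. The count was 6 without HBO replicate 2 or 3 and 5 without sham replicate 1 or 2. In 2 of the 15 the log2 fold change was negative, down to -0.299. In 1 of the 15 every HBO library lay below every sham library. Cdh5, the cadherin of endothelial junctions, had 74.8, 131 and 106 CPM in HBO, against 27.4, 22.1 and 34.3 CPM in sham, a log2 fold change of 1.89 ± 0.23 (adjusted p = 0.00128). Kdr, the main receptor of VEGF-A, was at 0.84 ± 0.14, and Pecam1 at 0.84 ± 0.16. Of 13 genes of the VEGF and angiopoietin families 5 were called higher and 1, Vegfa, lower (median 0.49). Angpt2, which loosens vessels for sprouting, was at 2.95 ± 0.36 (adjusted p = 0.00128), and the co-receptors Nrp1 and Nrp2 at 1.54 ± 0.22 and 0.91 ± 0.11. Of 12 genes of pericytes and smooth muscle 7 were called higher and 0 lower (median 1.01), and 2 had a negative log2 fold change. Anpep, a peptidase of pericytes and myeloid cells, had 68.8, 148 and 113 CPM in HBO, against 5.71, 7.14 and 10.7 CPM in sham, with a log2 fold change of 3.80 ± 0.33 (adjusted p = 0.00104). Its groups were 13.9-fold apart. Pdgfrb was at 1.39 ± 0.15 and the smooth muscle actin Acta2 at 1.91 ± 0.27.

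Most reactive astrocyte genes rose, and all but 1 of the homeostatic astrocyte genes did not pass the test. Of 14 reactive astrocyte genes 9 were called higher and 0 lower (median 1.25). Nes, an intermediate filament of progenitors and reactive astrocytes, had 150.4, 162 and 160.0 CPM in HBO, against 41.9, 59.4 and 76.9 CPM in sham, a log2 fold change of 1.40 ± 0.20 (adjusted p = 0.0019). The HBO libraries were nearly equal. Vim, another filament, was at 1.35 ± 0.23, Cd44, a hyaluronan receptor, at 1.46 ± 0.25, and the copper protein Cp at 1.79 ± 0.30. Gfap, the defining astrocyte filament (chr11:102887336-102900912), had 6613, 5509 and 6447 CPM in HBO, against 2284, 4203 and 4131 CPM in sham. Its log2 fold change was 0.81 ± 0.26 (adjusted p = 0.0432), and it lost its call in 5 of the 6 fits without 1 library, with 0.76 without HBO replicate 1, 0.78 without HBO replicate 3, 0.57 without sham replicate 1 and 0.93 without sham replicate 2 or 3. Of 12 homeostatic astrocyte genes only Slc6a11, a GABA transporter, was called, as lower (list median -0.07). It had 293, 162 and 203 CPM in HBO, against 567, 422 and 435 CPM in sham, with a log2 fold change of -1.11 ± 0.22 (adjusted p = 0.00718). The list median was 0.0095 without sham replicate 3 and -0.18 without sham replicate 2, 2 genes were called lower without HBO replicate 1, and the DESeq2 Wald test called 4 of the 12 lower. The glutamate transporter Slc1a2 had 3700.3, 3031 and 3792 CPM in HBO, against 4718, 5254 and 4273 CPM in sham (-0.44 ± 0.18, adjusted p = 0.106) and was not called.

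Myelin genes did not pass the test at day 7. Of 14 genes of myelin and oligodendrocytes 0 were called in edgeR (median -0.02), and 1 without HBO replicate 1 or sham replicate 3. Mbp, a main protein of compact myelin, had 2449, 3697 and 2103 CPM in HBO, against 1919, 2575 and 2148 CPM in sham, a log2 fold change of 0.31 ± 0.24 (adjusted p = 0.358). The groups overlapped. Opalin, a marker of mature oligodendrocytes, was at -0.50 ± 0.19 (adjusted p = 0.0741) and was the gene called without HBO replicate 1 (-0.65) or sham replicate 3 (-0.63). The median of the list took either sign without single libraries, from -0.12 without HBO replicate 1 to 0.041 without HBO replicate 2. Of 10 genes of oligodendrocyte precursors 3 were called higher and 0 lower (median 0.22), beside 16.6% of all genes called higher. The higher count was 5 without HBO replicate 2. In 3 of the 10 the log2 fold change was negative. Olig1 was called lower in the DESeq2 Wald test (-0.44, adjusted p = 0.0488) and in the edgeR fit without HBO replicate 1 (-0.59, adjusted p = 0.0161). Pdgfra, a growth factor receptor of precursors and fibroblasts, had 137, 189.7 and 137 CPM in HBO, against 66.9, 78.7 and 75.7 CPM in sham, with a log2 fold change of 1.07 ± 0.15 (adjusted p = 0.00203). Gpr17 was at 0.85 ± 0.19 and the proteoglycan Cspg4, or NG2, at 0.60 ± 0.12.

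Schwann cell genes were higher but differed between sham libraries. Of 11 tested genes, which include Mbp and Sox10 of oligodendrocytes too, 6 were called higher (median 1.4); 9 were called without sham replicate 3 (median 1.88) and 3 without sham replicate 2 (median 1.36). The summed level of the list, to which Mbp gives most, was 3840, 5490 and 3410 CPM in HBO and 2180, 2910 and 2870 CPM in sham. Its mean log2 CPM was 6.55, 6.87 and 6.42 in HBO and 3.53, 4.01 and 5.77 in sham, so sham replicate 3 lay near HBO. Drp2, a protein of Schwann cell membranes, had 164, 163 and 186 CPM in HBO, against 73.7, 84.9 and 69.6 CPM in sham, a log2 fold change of 1.17 ± 0.12 (adjusted p = 0.00111). Sham replicate 3 was not high in it. Egr2, which drives the making of peripheral myelin, had 12.99, 16.9 and 12.2 CPM in HBO, against 1.43, 2.38 and 5.36 CPM in sham (2.18 ± 0.40, adjusted p = 0.00524). Of 9 ependymal genes 1 was called, Hydin of the ciliary shaft, as lower (-0.55 ± 0.15, adjusted p = 0.0258), with a list median of 0.08, which was -0.08 without HBO replicate 2; Hydin lost its call in the fits without HBO replicate 1 or 2 or any sham replicate.

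Neuronal genes of the synapse fell. Of 18 genes of synaptic vesicle release 16 were called lower and 0 higher (median -0.91). Without sham replicate 1 the count was 8, with all 18 log2 fold changes below 0 in the fit of 6 libraries. The summed level of the list was 5130, 3020 and 4260 CPM in HBO and 8760, 7000 and 7490 CPM in sham, a ratio of 0.534. Syt1, the calcium sensor of release, had 80.9, 62.3 and 83.9 CPM in HBO, against 171, 179 and 167 CPM in sham, a log2 fold change of -1.19 ± 0.13 (adjusted p = 0.00116). Unc13a, which primes vesicles, had 89.8, 71.8 and 107 CPM in HBO, against 232, 192 and 195 CPM in sham (-1.21 ± 0.16, adjusted p = 0.00161), and the groups stood clear of each other in both genes. Snap25, a SNARE protein of release (chr2:136713453-136782428), had 1041, 539 and 923 CPM in HBO, against 1795, 1596 and 1520.0 CPM in sham. HBO replicate 2 was lowest, and the log2 fold change of -0.97 ± 0.24 (adjusted p = 0.0157) was -0.90 without sham replicate 1 (adjusted p = 0.0555). Cplx2 was at -0.94 ± 0.15 and Syn2 at -0.86 ± 0.14.

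Genes that define transmitters fell across inhibitory and excitatory cells. Of 12 tested genes 8 were called lower and 0 higher (median -0.90), beside 12.5% of all genes called lower. Gad2 and Gad1, the enzymes that make GABA, had log2 fold changes of -0.995 ± 0.13 and -1.03 ± 0.17. Gad2 had 78.7, 58.8 and 72.4 CPM in HBO, against 150.3, 137 and 131 CPM in sham, and no library overlapped. Slc17a6, the glutamate transporter of vesicles in cord neurons, had 111, 75.5 and 111 CPM in HBO, against 190.0, 189 and 164 CPM in sham, with a log2 fold change of -0.87 ± 0.16 (adjusted p = 0.00554). Slc32a1, which loads GABA and glycine, was at -1.23 ± 0.21, uncertain as 24.9% of its exon bases are shared with a gene on the opposite strand. Motor neuron genes were called lower in 3 of 10 (median -0.71), a count of 7 without HBO replicate 1 and of 1 without sham replicate 1, and the median was -1.12 without HBO replicate 1 and -0.36 without HBO replicate 2. The choline transporter Slc5a7 had 69.7, 28.9 and 46.97 CPM in HBO, against 103, 104 and 78.2 CPM in sham (-0.97 ± 0.28, adjusted p = 0.0287) and was not called without HBO replicate 3 (-0.95), sham replicate 1 (-0.91) or sham replicate 2 (-0.92). Of 15 neuropeptide genes 3 were called lower (median -0.64), beside 12.5% of all genes called lower. The 3 were Calca, Cck at -1.36 ± 0.29 and Sst at -0.70 ± 0.16. Without HBO replicate 1 the count was 6, and the median was -0.39 without HBO replicate 3. Of 9 sensory ganglion genes 3 passed the count filter and 0 were called.

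Receptors for transmitters fell nearly in full. Of 25 tested glutamate receptor genes 23 were called lower and 0 higher (median -0.88), and in all 25 every HBO library lay below every sham library, which held for 22.8% of all genes tested. Gria1, an AMPA receptor subunit, had 139, 113 and 131 CPM in HBO, against 221, 216 and 215 CPM in sham, a log2 fold change of -0.77 ± 0.12 (adjusted p = 0.00246). Grm5, a metabotropic receptor, had 74.1, 56.9 and 86.6 CPM in HBO, against 148, 168 and 138 CPM in sham, with a log2 fold change of -1.06 ± 0.16 (adjusted p = 0.00263). Of 18 GABA and glycine receptor genes 14 were called lower and 0 higher (median -0.82), and 9 without sham replicate 1. Gabrb2 was at -0.91 ± 0.17 and Gabrg3 at -0.77 ± 0.14.

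Ion channels followed the same direction, with few exceptions. Of 74 tested potassium channel genes 46 were called lower and 6 higher (median -0.81), and 25 lower without sham replicate 1. Kcnt1, a sodium-activated channel, had 81.1, 72.9 and 81.2 CPM in HBO, against 191, 159.7 and 162 CPM in sham, a log2 fold change of -1.12 ± 0.12 (adjusted p = 0.00111). Kcnc2, a fast-spiking channel, was at -0.95 ± 0.14. The 6 called higher were Kcnj15, Kcnk5 (2.20), Kcnn4 (2.18), Kcne4 (1.19), Kcnk6 (1.16) and Kcnj2 (0.88), of which Kcnn4 is the calcium-activated channel of leukocytes; all but Kcnj15 were named after their values were seen. Of 33 tested sodium and calcium channel genes 26 were called lower and 1, Scn7a, a sodium channel of glia, higher (median -0.76). The lower count was 14 and the higher count 2 without sham replicate 1, and the higher count was 2 without HBO replicate 3, in the DESeq2 Wald test and without the low count filter. Cacna1i and Cacna1g, low-voltage calcium channels, were at -1.26 ± 0.19 and -0.89 ± 0.12. Cacna1b, the N-type channel of nerve endings, had 73.3, 54.8 and 64.97 CPM in HBO, against 143, 128 and 116 CPM in sham, with a log2 fold change of -1.001 ± 0.14 (adjusted p = 0.0019).

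Genes of axon structure were lower in part. Of 14 genes of neurofilaments and the axonal cytoskeleton 6 were called lower and 0 higher (median -0.67), and all 14 had a negative log2 fold change. The count depended on single libraries: 11 without HBO replicate 1, 3 without HBO replicate 3, sham replicate 2 or sham replicate 3, and 1 without sham replicate 1. The DESeq2 Wald test called 10, and the median was -0.44 without HBO replicate 2. The tubulin regulator Stmn3 had 146, 75.1 and 119 CPM in HBO, against 241, 212 and 193 CPM in sham. HBO replicate 2 was lowest, and the log2 fold change of -0.92 ± 0.22 (adjusted p = 0.0147) was -0.84 without sham replicate 1 (adjusted p = 0.0534). Of 12 tested regeneration genes 4 were called higher (median 0.39), and 2 without HBO replicate 1, 2 or 3 or sham replicate 2. Atf3, a transcription factor induced by axon injury, had 23.01, 37.5 and 23.9 CPM in HBO, against 4.05, 6.97 and 10.4 CPM in sham, a log2 fold change of 1.98 ± 0.33 (adjusted p = 0.0035). Klf6, a growth-promoting factor of axons in zebrafish, was at 1.17 ± 0.13 (adjusted p = 0.00111).

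Trophic and guidance genes were called in both directions. Over all genes tested, 16.6% were called higher and 12.5% lower. Of 12 tested neurotrophic genes 6 were called higher and 2 lower (median 0.41); without sham replicate 1 these were 2 and 0 (median 0.25), without HBO replicate 2 there were 3 higher, and without sham replicate 2 or 3 there was 1 lower. Bdnf, brain-derived neurotrophic factor, had 5.29, 4.68 and 5.53 CPM in HBO, against 6.11, 8.11 and 7.72 CPM in sham and was not called (-0.50 ± 0.20, adjusted p = 0.0972); 14.4% of its exon bases are shared with a gene on the opposite strand. Of 30 tested Wnt pathway genes 12 were called higher and 0 lower (median 0.51), the median was 0.32 without HBO replicate 2, and 1 gene was called lower without HBO replicate 1. The ligand Wnt4 was at 2.58 ± 0.29 (adjusted p = 0.00114), the ligand Wnt9a at 2.47 ± 0.30, the antagonist Dkk2 at 3.06 ± 0.35 and Sfrp4, a secreted decoy for Wnts, at 4.67 ± 0.61. Of 65 tested semaphorin, ephrin, slit and netrin pathway genes 13 were called higher, a share near that of all genes, and 14 lower. The lower count was 5 without sham replicate 1. The median was -0.03, and 0.097 without HBO replicate 3 and 0.025 without sham replicate 3. The ephrin receptor Epha3 had 14.4, 33.9 and 28.3 CPM in HBO, against 2.70, 4.50 and 3.90 CPM in sham (2.79 ± 0.34, adjusted p = 0.00128). Slit1, a repellent made by neurons, had 38.9, 32.7 and 41.7 CPM in HBO, against 81.6, 68.7 and 69.2 CPM in sham (-0.95 ± 0.14, adjusted p = 0.00199). Of 12 genes of proteoglycans that inhibit axon growth 4 were called higher and 2 lower (median 0.27). Vcan, the versican core protein, had 231, 336 and 332 CPM in HBO, against 89.4, 113 and 134 CPM in sham, with a log2 fold change of 1.41 ± 0.19 (adjusted p = 0.00174). The 2 lower ones, Bcan (-0.42) and Hapln1 (-0.91), both of perineuronal matrix, lost their calls without HBO replicate 2, sham replicate 1 or sham replicate 2, and 1 gene of the list was called lower without the low count filter, HBO replicate 1 or 3 or sham replicate 3. Of 7 genes of growth inhibition by myelin 1 was called higher and 1 lower (median -0.25, and -0.036 without HBO replicate 2); the higher call was lost in the DESeq2 Wald test and without HBO replicate 1 or 2 or sham replicate 1 or 2, and the lower count was 0 without sham replicate 1 and 2 without HBO replicate 3.

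Stress and death genes rose in part. For the counts below, the shares over all genes were 16.6% higher and 12.5% lower. Of 12 genes of endoplasmic reticulum stress 5 were called higher and 0 lower (median 0.60). Hspa5, the chaperone BiP, had 269.8, 334 and 305 CPM in HBO, against 121, 121 and 161 CPM in sham, a log2 fold change of 1.17 ± 0.15 (adjusted p = 0.0015). Of 16 apoptosis genes 9 were called higher (median 0.79), and 5 without HBO replicate 2 or sham replicate 1. Casp8, the initiator caspase of death receptors, was at 1.63 ± 0.26 (adjusted p = 0.00292), and Mcl1, which blocks apoptosis, at 0.86 ± 0.14. Of 12 autophagy genes 1 was called lower and 0 higher (median -0.05), and 2 lower in the DESeq2 Wald test, without the low count filter or without HBO replicate 1. The 1 gene was Gabarapl1 (-0.54 ± 0.17, adjusted p = 0.0409), of whose exon bases 28.3% are shared with a gene on the opposite strand, and it lost its call without HBO replicate 2 or 3 or any sham replicate. Of 80 tested ribosomal protein genes 20 were called higher and 1 lower (median 0.38); the higher count was 7 without HBO replicate 2 and 8 without sham replicate 1 or 2, and the lower count was 0 in all fits without 1 library but that without HBO replicate 1. Rplp0 was at 0.79 ± 0.15 (adjusted p = 0.00525). Proteasome subunits were called higher in 2 of 37 and lower in 1 (median -0.08), and lower in 2 in the DESeq2 Wald test and without HBO replicate 1 or sham replicate 2. Of 11 immediate early genes 3 were called higher (median 0.25, and 0.47 without sham replicate 2), and 1 was called lower in the DESeq2 Wald test and without HBO replicate 1 or sham replicate 3. Many ribosomal protein genes have processed copies elsewhere in the genome, between which reads could be split.

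Few nuclear genes of the respiratory chain were called, and the mitochondrially encoded ones rested on 1 library. Among all genes tested, 16.6% were called higher and 12.5% lower. Of 80 tested nuclear genes of the chain 1 was called higher and 7 lower (median -0.27); the DESeq2 Wald test called 0 higher and 11 lower, and the fit without the low count filter 0 and 3. The lower count was 18 without HBO replicate 1, 3 without sham replicate 2, 1 without HBO replicate 3 or sham replicate 3, and 0 without HBO replicate 2 or sham replicate 1. The gene called higher, Cox7a1, a muscle-type subunit, was at 0.85 ± 0.27 (adjusted p = 0.0419) and lost its call in the DESeq2 Wald test (adjusted p = 0.074), without the low count filter (adjusted p = 0.05) and without HBO replicate 1 or 2 or any sham replicate. Of the 13 mitochondrially encoded genes 0 were called (median 0.28), and 1 without the low count filter or without HBO replicate 1 or 2. The ATP synthase subunit mt-Atp6 had 455, 405 and 6301 CPM in HBO, against 472, 346 and 534 CPM in sham. HBO replicate 3 was more than 10-fold above the rest, and the log2 fold change of 2.41 ± 0.94 (adjusted p = 0.0858) was -0.065 without that library and 2.90 and 2.91, and called, without HBO replicate 1 and 2. Without HBO replicate 3 the median of the 13 genes was -0.23.

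The spread between HBO libraries had a direction shared by many lists. Among 40 lists and families with at least 5 tested members of which at least 50% were called, HBO replicate 2 lay farthest from sham in 26, HBO replicate 3 in 10 and HBO replicate 1 in 4. HBO replicate 1 was nearest to sham in 31. In the 6 of these lists that were lower in HBO, replicate 2 was the lowest HBO library each time. The lists share libraries and genes, so these counts are a description.

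**Figure D4:**
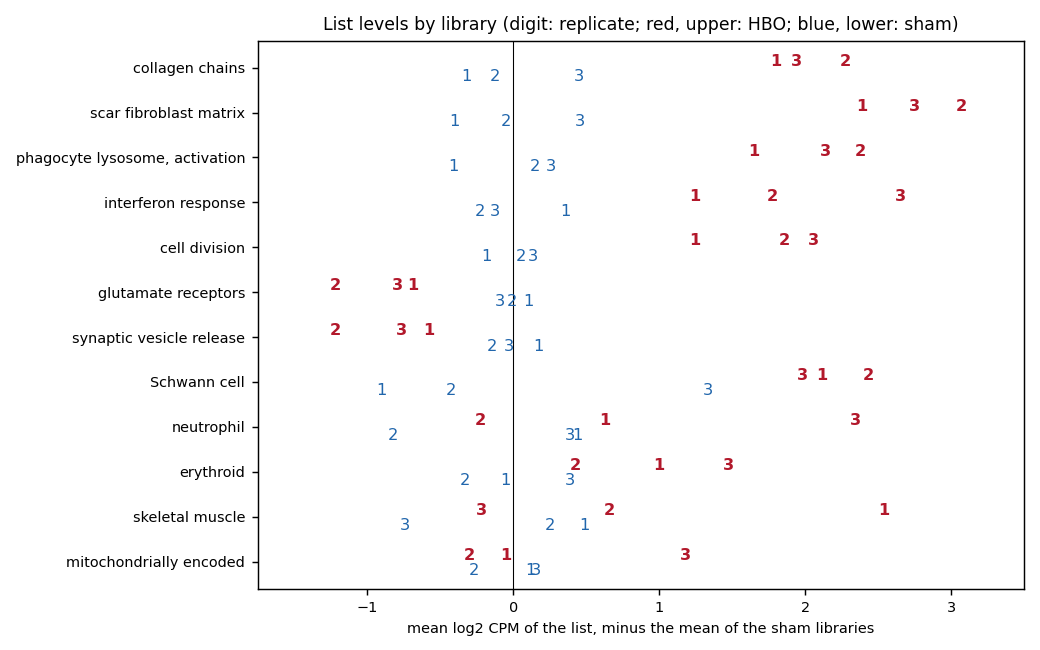
Mean log2 CPM of 12 lists in each library, as the difference from the mean of the 3 sham libraries; red digits (upper) are HBO replicates 1 to 3 and blue digits (lower) sham replicates 1 to 3. Matrix, phagocyte, interferon and mitotic lists are above sham and synaptic and receptor lists below it in every HBO library, while the neutrophil and mitochondrial lists are highest in HBO replicate 3 and the muscle list in HBO replicate 1, with the other HBO libraries close to sham.

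Of the markers of cells and tissue from outside the cord, neutrophil and muscle genes moved with single libraries. By mean log2 CPM, erythroid genes stood higher in every HBO library (4.51, 3.94 and 4.99) than in sham (3.46, 3.18 and 3.9). So did cartilage and bone genes, with 3.05, 2.27 and 2.9 in HBO and 1.52, 1.38 and 1.76 in sham. The summed levels of cartilage and bone genes overlapped, with 51.3 CPM in HBO replicate 2 and 58.1 CPM in sham replicate 1. Neutrophil genes were called higher in 2 of 12 tested (median 1.21), a share near the 16.6% of all genes called higher. The median was -0.02 without HBO replicate 3 and 0.80 without sham replicate 2. Their summed level was 173, 135 and 488 CPM in HBO and 143, 71 and 129 CPM in sham. Ly6g, a defining neutrophil marker, was below the count filter. S100a8 and S100a9, defining markers too, were tested and not called, with log2 fold changes of 1.12 and 1.24. Csf3r, the receptor of granulocyte colony-stimulating factor, which microglia also express, had 57.5, 81.1 and 66.1 CPM in HBO, against 26.5, 29.5 and 33.9 CPM in sham and was even among HBO libraries (1.19 ± 0.16, adjusted p = 0.00168). Mmp8, the other gene called, had 4.45, 5.93 and 20.01 CPM in HBO, against 3.09, 0.617 and 2.65 CPM in sham, and was at 1.27 without HBO replicate 3; its call was lost without that library or any sham replicate. Without HBO replicate 2, 4 neutrophil genes were called, and without HBO replicate 3 or any sham replicate, 1. Skeletal muscle genes had a median of 1.76 and summed levels of 464, 113 and 93.4 CPM in HBO and 144, 102 and 90.9 CPM in sham. Without HBO replicate 1 their median was 0.14. Of 11 tested, 2 were called higher, again near the 16.6% of all genes. The higher count was 5 without HBO replicate 3, 1 (and 1 lower) without HBO replicate 1 and 1 without sham replicate 2. It was 0 without sham replicate 1 or 3, and 1 gene was called lower in the DESeq2 Wald test and without the low count filter. Erythroid genes were at 313, 246 and 348 CPM in HBO and 176, 169 and 228 CPM in sham (3 of 7 called higher, median 0.62), with 6 called without HBO replicate 2, 5 without sham replicate 3 and 1 without sham replicate 1 or 2. Cartilage and bone genes were called higher in 3 of 5 tested (median 1.22), and in 2 without HBO replicate 3 or any sham replicate. Col2a1 was at 1.22 ± 0.21 and Comp, a cartilage matrix protein that fibroblasts also make, at 3.13 ± 0.60. The part of these tissues in the matrix and immune results was not tested.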

How the data were processed

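RNA was measured in mouse spinal cord by sequencing of total RNA extracts. The submitters' processing notes name HISAT2 and the mouse build GRCm38 (mm10); the sources used here do not give its version, the counting tool, the strand setting or the annotation release. The authors deposited raw counts and FPKM for 34745 Ensembl genes. Counts of the 6 libraries were filtered with filterByExpr, scaled by TMM and tested with edgeR 4.0.16 in R 4.3.3 (quasi-likelihood, Benjamini-Hochberg adjustment over 17397 genes, threshold 0.05). The fit was also run on simulated counts in which few genes changed, in equal numbers up and down. These data differ from that setting, so the run does not show how the fit behaves on them. CPM were computed on TMM-adjusted library totals, errors are SD of 3 libraries for levels and SE for log2 fold changes, and the deposited FPKM served only to rank genes. Precision is limited by 3 libraries a group. The members and lists were chosen with earlier results of these data known. Genes were named as the 12 largest rises and falls called in all fits without 1 library, with at least 5 CPM in the higher group and 4 counts in the lower, up to 4 genes of lowest p in each of 69 lists and families, 10 panel genes and up to 6 genes at 0 in sham. Genes with 10% or more of their exon bases in another gene are called uncertain. Alternatives were other size factors, no filter, DESeq2 1.42.0, a replicate block, no mitochondrial genes and each library left out. Some genes that the rule names are not reported here.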

Additional observations from a re-analysis of the deposited data

How the results depend on the processing

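The number of genes called, 5072, was 5100 with DESeq2 size factors, 5059 without the filter, 5318 in the DESeq2 Wald test and 5086 without mitochondrially encoded genes, and 94.1% to 99.4% of the calls were shared. Leaving out 1 library gave 2859 to 5428 calls, 1943 to 3030 higher and 916 to 2398 lower, with the fewest without sham replicate 1; 1309 were lower without HBO replicate 2 and 1406 without sham replicate 2. The higher share of calls was 57% and reached 68% without sham replicate 1. In none of these fits did a called gene change sign. Deviations from the group means correlated at 0.15, -0.04 and -0.08 between same-numbered libraries, and at -0.18 to 0.21 between the others. These values are tied to each other within a group, so they cannot settle whether the numbers pair libraries. With the replicate block 4839 genes were called, 2756 higher and 2083 lower. Called lower with the block were 7 cholesterol, 10 axonal cytoskeleton, 2 autophagy, 2 proteasome and 2 matrix protease genes. The lower count was 1 for immediate early genes, 1 for muscle genes and 0 for ependymal genes, where Hydin lost its call (adjusted p = 0.0559). Genes called higher with the block numbered 13 of ribosomal proteins, 6 erythroid, 5 of muscle, 3 protocadherins, 2 sodium and calcium channels, 0 of growth inhibition and 0 of the nuclear respiratory chain, where Cox7a1 lost its call (adjusted p = 0.0708). The log2 fold change of Il1b turned to 0.095 with the block, and ranged from -1.56 (without sham replicate 3) to 1.62 (without sham replicate 1). Those of mt-Atp6 ranged from -0.065 to 2.91, of mt-Atp8 from -0.195 to 1.43, of mt-Nd4l from -0.11 to 0.77 and of mt-Nd4 from -0.23 to 0.86, each lowest without HBO replicate 3 and highest without HBO replicate 2. The cause was not tested. At these depths, most lymphocyte and ganglion markers were too low to test.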

Other observations

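The most abundant transcripts of the groups were shared in part. Ranked by the mean deposited FPKM, which is per transcript length, the 50 top genes of HBO and of sham shared 36. Of the 14 found only in the HBO list, Lyz2, lysozyme of phagocytes, was at rank 19 in HBO and 166 in sham, with 1280.0 ± 556 FPKM in HBO and 111 ± 46.8 FPKM in sham (SD, n = 3 each). Col1a1 was at rank 42 in HBO and 2188 in sham, and Apoe, a lipid carrier, at 34 in HBO and 152 in sham. Of the 14 found only in the sham list, Nefl, the light neurofilament, was at rank 61 in HBO and 28 in sham, with 316 ± 109 FPKM in HBO and 557 ± 65.2 FPKM in sham.

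Of 32 tested Hox genes, which keep the position of cells along the body axis, 13 were called lower and 0 higher (median -0.44). Beside them, 12.5% of all genes were called lower. The count was 7 without HBO replicate 2, 8 without HBO replicate 3 and 5 without sham replicate 1 or 3. Of 13 tested genes of paralogs 8 to 11, 10 were called lower (median -0.87). Of 19 tested genes of paralogs 1 to 7, 3 were called lower (median -0.16), a share near that of all genes. The difference between these parts was not tested. Hoxb8 was at -1.11 (adjusted p = 0.00218), while Hoxc8, its paralog in another cluster, was at -0.10 and was not called. Hoxc8 was chosen after its value was seen, and the length of cord taken is not given.

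Of 55 tested clustered protocadherins, 1 was called higher and 15 lower (8 lower without HBO replicate 2; 2 higher in the DESeq2 Wald test, without the low count filter and without HBO replicate 1 or 3 or sham replicate 2). Of the 16 called, 11 were alpha genes, which share 38.9% to 59.9% of their exon bases with other genes, so single values are uncertain. By type of gene, 23 of 369 lincRNAs were called higher (6.23%) and 50 lower (13.6%). Of 14785 protein coding genes 2717 were higher (18.4%) and 1931 lower (13.1%). Over all genes tested the shares were 16.6% higher and 12.5% lower, so the lower share of lincRNAs was near that of all genes.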
